A study of Mus musculus with 12 samples.

Results

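A group of 10 genes that cardiomyocytes are known to raise under mechanical load, leaving aside the natriuretic peptides and the myosins, was followed in hearts that had lost CYB5R3. They were taken from a fixed list (Acta1, Actc1, Ankrd1, Ankrd2, Xirp1, Xirp2, Csrp3, Rcan1, Fhl1 and Nrap) and make up 10 of the 53700 genes counted. The rule holds no measured value, but the list was chosen with earlier results of these data known. All 10 passed the filter on low counts, as did 17847 genes in all. Xirp2 was 2.38-fold higher in ac-CYB5R3–KO than in ac-WT hearts. All 6 knockout hearts lay above every control heart, a separation that 0.51% of all genes tested showed on the higher side. Rcan1 was 1.61-fold higher. Both were called at an unadjusted p under 0.01 by edgeR, but neither passed an adjusted p under 0.05 in that test (0.0715 and 0.211). Rcan1 lost its call in 9 of 21 alternative settings. The other 8 genes were not called in either direction. The fitted changes did not all have the same sign. Xirp1, the closest relative of Xirp2, was fitted lower with a 95% interval that includes 0, and Acta1 and Ankrd1 differed by less than the spread between mice.

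Whole hearts of 12 male mice were sequenced, 6 in each group. The ac-WT mice were CYB5R3wt/wt, Myh6-CreERT2 and the ac-CYB5R3–KO mice CYB5R3fl/fl, Myh6-CreERT2, so that both groups carried a Cre recombinase that is driven by the cardiomyocyte promoter of Myh6 and becomes active with tamoxifen. Both groups were given tamoxifen at 33 mg/kg/d for 5 days at an age of 10 to 13 weeks, on a background backcrossed 3 times to C57BL/6J, and hearts were taken 5 days later. This promoter directs the deletion to cardiomyocytes, and the other cells of the heart keep Cyb5r3. In bulk tissue of this kind, fewer cells of a type and less RNA per cell cannot be told apart.

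Cardiomyocytes sense stretch at the Z-disc, where the thin filaments of neighbouring sarcomeres are anchored, at the spring region of titin, and at the intercalated disc, where cells pull on each other. Proteins that sit at these places pass the signal to transcription factors, among them SRF with its cofactors, MEF2, the TEAD factors, and NFAT, which the calcium-activated phosphatase calcineurin switches on. Load then raises fetal actin, muscle ankyrin repeat proteins, Xin-repeat and LIM-domain proteins, which is why these genes are widely used as markers of strain and hypertrophy.

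The DNA just upstream of 4 of the genes is shown first, because it holds matches to those factors in different combinations. Each line gives the 250 bases before a RefSeq start site (assembly GRCm38.p6), read 5′ to 3′ on the strand of the gene, with matches in capitals. The window of Xirp2 is chr2:67445752-67446001 on the plus strand, that of Acta1 chr8:123894776-123895025 on the minus strand and that of Ankrd1 chr19:36119845-36120094 on the minus strand. For Rcan1, the window of the internal start site is shown, chr16:92400079-92400328 on the minus strand.
Xirp2: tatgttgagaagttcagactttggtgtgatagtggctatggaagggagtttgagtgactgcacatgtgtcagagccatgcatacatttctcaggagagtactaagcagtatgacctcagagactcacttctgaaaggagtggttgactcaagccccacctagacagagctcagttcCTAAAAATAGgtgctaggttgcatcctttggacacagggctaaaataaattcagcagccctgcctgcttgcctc
Acta1: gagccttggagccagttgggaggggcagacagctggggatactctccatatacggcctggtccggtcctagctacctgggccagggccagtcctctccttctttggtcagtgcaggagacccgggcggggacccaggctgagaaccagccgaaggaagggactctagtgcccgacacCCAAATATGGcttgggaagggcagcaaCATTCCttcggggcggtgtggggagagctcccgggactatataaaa
Ankrd1: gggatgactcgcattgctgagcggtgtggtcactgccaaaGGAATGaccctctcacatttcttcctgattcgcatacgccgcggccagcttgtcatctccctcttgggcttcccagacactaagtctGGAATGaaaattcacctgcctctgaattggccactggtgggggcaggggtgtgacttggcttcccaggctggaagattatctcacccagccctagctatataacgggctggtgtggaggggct
Rcan1, internal start: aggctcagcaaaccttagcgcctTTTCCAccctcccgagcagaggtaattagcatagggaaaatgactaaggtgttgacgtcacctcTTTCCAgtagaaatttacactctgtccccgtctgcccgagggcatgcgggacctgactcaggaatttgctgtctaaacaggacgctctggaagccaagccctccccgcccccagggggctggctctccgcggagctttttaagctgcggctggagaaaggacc
In the window of Xirp2 the capitals mark a match to the MEF2 site, between 74 and 65 bases before the start. The capitals of Acta1 are a CArG box, the element bound by SRF, from 73 bases before the start, and an M-CAT element (CATTCC, bound by TEAD factors) from 46 bases before it. The 2 runs of Ankrd1 are M-CAT elements on the opposite strand, at 210 and 123 bases before the start, and those of Rcan1 are 2 NFAT cores (TGGAAA) on the opposite strand, at 227 and 163 bases.

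Both strands were searched for these motifs and for the GATA core (GATAA), which is not capitalised, in the 12 windows that the RefSeq table holds for 9 of the genes. It has no entry for Xirp1. A CArG box stood in 3 of the 12 windows, those of Acta1, Actc1 (47 bases before the start) and Fhl1 (102 bases before), against 1.47% of the 32851 windows of all genes. The MEF2 site stood in 1 window, against 2.92% of all windows. M-CAT was found in 2 windows (12.6% of all), the NFAT core in 1 (18.6% of all) and the GATA core in 1, that of Ankrd1 (22.6% of all). No CArG box, MEF2 site, M-CAT or NFAT core was found in the windows of Ankrd2, Csrp3 or Nrap, in the upstream start of Rcan1 or in the second start of Fhl1. A match is a stretch of letters and not a bound site, and the counts per gene do not separate the start sites of Rcan1, Csrp3 or Fhl1.

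Libraries held between 43393183 and 53754284 counts assigned to genes, and levels are given as TMM-normalised CPM, the counts of a gene scaled to library size, with the SD over 6 mice. The TMM factors of ac-WT hearts 2 and 3 (0.570 and 0.723) were the lowest of the 12, the others lying between 0.988 and 1.22, and the same 2 hearts had the highest share of mitochondrial counts (35.3% and 34.8%, against at most 30.1% in the others). Values without these hearts are given for several genes and read ratios but not for sums of cell markers, and the part of library composition in the results was not tested. Cyb5r3, the deleted gene, was at 126 ± 38.4 CPM in ac-WT and 53.7 ± 9.07 in ac-CYB5R3–KO hearts (edgeR log2 fold change -1.22, SE 0.19, adjusted p = 0.0450), lower in 6 of 6 knockout hearts than in any control, a separation that 1.04% of all genes tested showed on the lower side. Its adjusted p was above 0.05 with limma-voom (0.0561), total counts (0.315) and the replicate block (0.10), and without ac-WT 3 (0.0650), ac-WT 5 (0.0708) or any of ac-CYB5R3–KO 1 to 5 (0.0877 to 0.136), while the log2 fold change lay between -1.49 and -1.03 in all alternatives. Of the 17847 genes tested, 0.101% passed an adjusted p under 0.05 by the quasi-likelihood test of edgeR, and 4.59% had an unadjusted p under 0.01, the limit that the study set for genes in its pathway analysis. Of the 10 strain genes, 0 passed the former, with a lowest adjusted p of 0.0715, beside 0.0392% of all genes on the higher side, and 2 passed the latter, the same 2 that had an unadjusted p under 0.05. DESeq2 gave 1 of 10 at an adjusted p under 0.05, which was Xirp2. Both called genes, Xirp2 and Rcan1, were on the higher side, which held 1.33% of all genes tested. The fitted change was above 0 for 8 of the 10 genes, beside 48.8% of all genes, and its median was 0.16 on the log2 scale, beside -0.0074 over all genes.

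**Figure D1:**
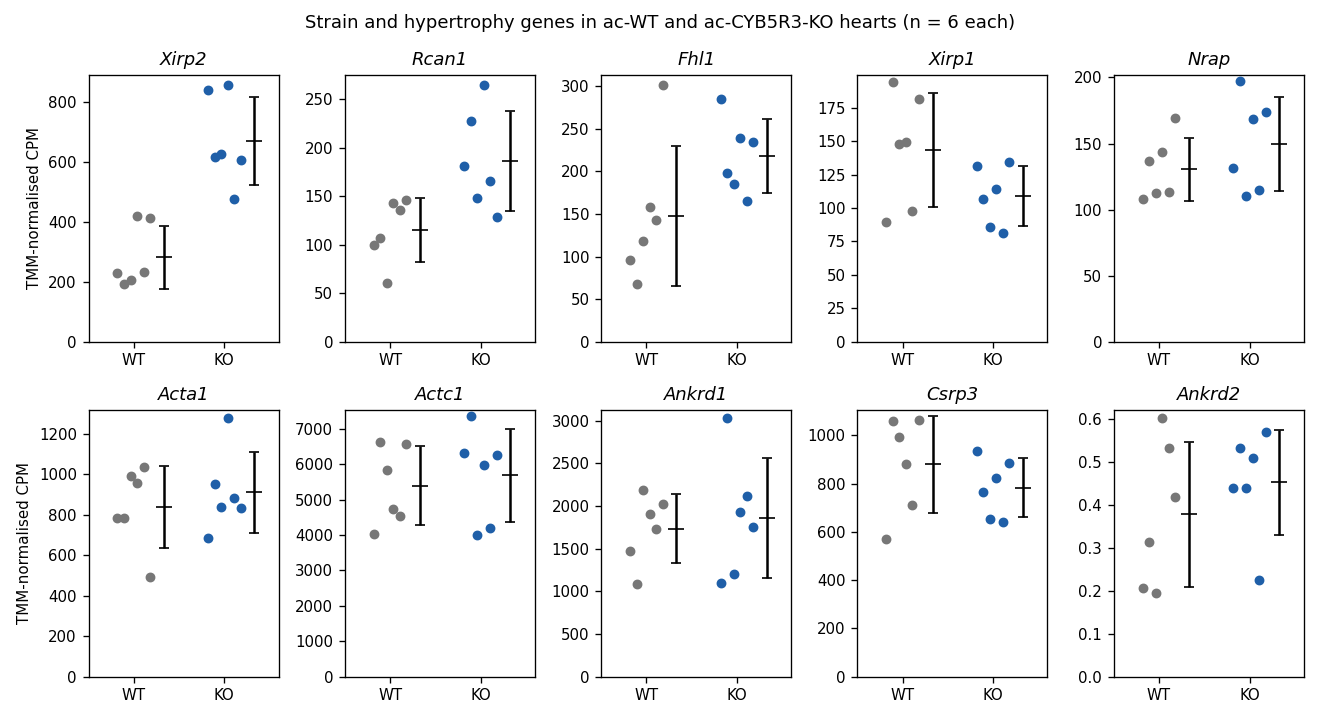
TMM-normalised CPM of the 10 genes in each heart, with a panel and a linear axis from 0 for each gene; grey points are ac-WT and blue points ac-CYB5R3–KO hearts (n = 6 each), and the black bars give the mean ± SD. For Xirp2 all 6 knockout hearts lie above the highest ac-WT heart at 420 CPM, and for the other 9 genes the groups overlap.

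Xirp2 and Xirp1 encode the Xin actin-binding repeat proteins, which bundle actin filaments at the intercalated disc and the Z-disc and are bound by filamin C and by Mena, the product of Enah. The 6 ac-WT hearts held 191 to 420 CPM of Xirp2, with a median of 230, and the 6 ac-CYB5R3–KO hearts 476 to 856 CPM, with a median of 622. The groups do not overlap, which was so on the higher side for 0.51% of all genes tested. The control hearts closest to the knockouts were ac-WT 4 and ac-WT 6, at 420 and 414 CPM, and the other 4 lay at 232 CPM or below. For Xirp2 the log2 fold change was 1.25 (SE 0.23, 95% interval 0.75 to 1.75), with an unadjusted p of 0.000109 and an adjusted p of 0.0715 by edgeR. In size, it was among the 0.768% of genes whose fitted change was 1 or more. An exact permutation test over the group labels of the 12 mice gave p = 0.00216, two-sided, the smallest p this design allows. With ac-WT heart 4 left out the adjusted p of Xirp2 was 0.0321 by edgeR, with ac-WT heart 6 left out it was 0.0386, and with any other heart left out it lay between 0.0877 and 0.191. Without ac-WT hearts 2 and 3 the log2 fold change was 1.06, with an unadjusted p of 0.000530 by edgeR.

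Xirp1 was not called. Its levels were 89.6 to 194 CPM in ac-WT hearts, with a median of 149, and 81.0 to 134 CPM in ac-CYB5R3–KO hearts, with a median of 110. The ranges overlap, and 2 knockout hearts lay below all control hearts. The log2 fold change was -0.40 (SE 0.20, 95% interval -0.83 to 0.038, edgeR adjusted p = 0.382), and the exact permutation test gave p = 0.134, two-sided. The interval therefore reaches from a level 0.562 times that of the controls to 1.03 times.

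Because both Xin genes were counted in the same library, their ratio of reads within a heart does not depend on how libraries are scaled. There were 0.985 to 2.82 reads of Xirp2 for each read of Xirp1 in ac-WT hearts, with a median of 2.32, and 4.51 to 7.52 in ac-CYB5R3–KO hearts, with a median of 6.12. All 6 knockout hearts lay above all 6 control hearts, and the geometric mean of the ratio was 3.17-fold higher. This ratio and the 3 others given here were chosen after the values of single genes had been seen, so they carry no test. The lowest ratios of the controls were those of ac-WT hearts 2 and 3, at 0.985 and 1.39, and without them the difference of Xirp2 over Xirp1 was 1.30 on the log2 scale in place of 1.66.

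**Figure D2:**
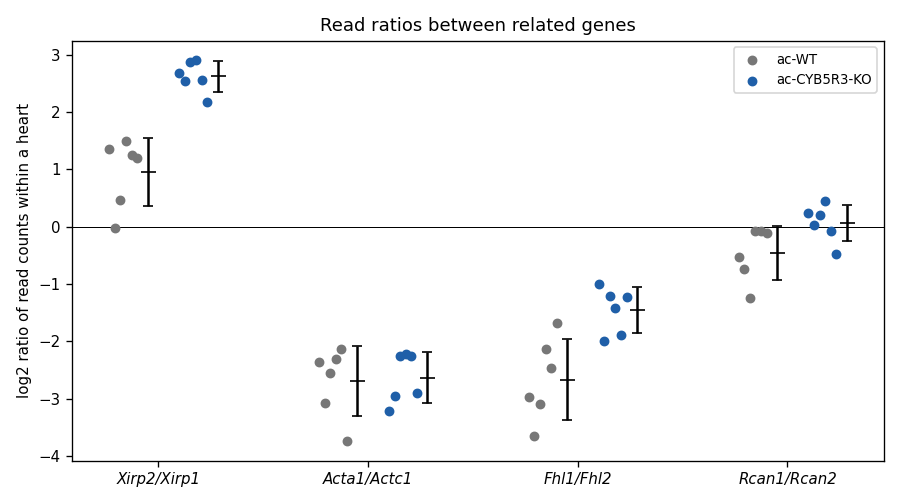
Log2 of the ratio of read counts within each heart for 4 pairs of related genes, with grey points for ac-WT and blue points for ac-CYB5R3–KO hearts (n = 6 each) and bars for mean ± SD. The Xirp2/Xirp1 ratio is higher in all 6 knockout hearts than in any control, whereas the Acta1/Actc1 ratios of the groups overlap.

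Rcan1 encodes a regulator of calcineurin, and its internal start site is a known NFAT target that is read as a gauge of calcineurin activity. Its levels were 60.5 to 146 CPM in ac-WT hearts, with a median of 121, and 128 to 265 CPM in ac-CYB5R3–KO hearts, with a median of 173. The groups overlap through 1 knockout heart, replicate 6 at 128 CPM, and 5 of 6 knockout hearts lay above all controls. For Rcan1 the log2 fold change was 0.69 (SE 0.22, 95% interval 0.21 to 1.17), with an unadjusted p of 0.00829 and an adjusted p of 0.211 by edgeR, and the exact permutation test gave p = 0.0152, two-sided. Leaving out any of 7 single hearts took the p of Rcan1 past that threshold. The unadjusted p by edgeR was 0.01 or more without ac-WT 1 (0.0193), ac-WT 2 (0.0154), ac-WT 3 (0.0104), ac-CYB5R3–KO 1 (0.0133), ac-CYB5R3–KO 2 (0.0206), ac-CYB5R3–KO 4 (0.0220) or ac-CYB5R3–KO 5 (0.0106), although the log2 fold change stayed between 0.57 and 0.78. Without both ac-WT hearts 2 and 3 it was 0.52, with an unadjusted p of 0.0227 by edgeR. Reads of Rcan1 for each read of Rcan2, its paralog, had medians of 0.807 in ac-WT and 1.09 in ac-CYB5R3–KO hearts. The geometric mean of this ratio was 1.44-fold higher, with 5 of 6 knockout hearts above all controls. Without ac-WT hearts 2 and 3 this difference was 0.27 on the log2 scale in place of 0.53.

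The other genes of the calcineurin and NFAT pathway gave no call. Of 18 genes tested, Rcan1 included, 10 were fitted higher and 8 lower with a median log2 fold change of 0.031, and Rcan1 alone had an unadjusted p under 0.01. Next in order of p came Gsk3b, a kinase that returns NFAT to the cytoplasm, with a log2 fold change of 0.21 (edgeR adjusted p = 0.321). The family member Rcan3 had a log2 fold change of 0.21 and Ppp3r1, the regulatory subunit of calcineurin, one of 0.19, with edgeR adjusted p of 0.383 and 0.442.

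Fhl1 encodes a LIM-domain protein that joins the titin spring to stretch signaling. The 6 ac-WT hearts ranged from 67.9 to 302 CPM, with a median of 131, and the ac-CYB5R3–KO hearts from 165 to 285 CPM, with a median of 216. The groups overlap because the highest of all 12 hearts was a control, ac-WT 6 at 302 CPM, and the other 5 controls lay at 159 CPM or below, under the lowest knockout heart. The log2 fold change of Fhl1 was 0.56 (SE 0.29, 95% interval -0.062 to 1.18), with an unadjusted p of 0.0741 and an adjusted p of 0.389 by edgeR, and the exact permutation test gave p = 0.0541, two-sided. Without ac-WT 6, the log2 fold change was 0.90 with an unadjusted p of 0.00102 by edgeR, and without ac-WT hearts 2 and 3 it was 0.33 with an unadjusted p of 0.236.

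Fhl2, the FHL protein best known from cardiomyocytes, was lower, at 848 ± 123 CPM in ac-WT and 598 ± 119 in ac-CYB5R3–KO hearts (log2 fold change -0.50, SE 0.15, unadjusted p = 0.00593, edgeR adjusted p = 0.196). Reads of Fhl1 for each read of Fhl2 were 0.0793 to 0.310 in ac-WT hearts, with a median of 0.154, and 0.250 to 0.498 in ac-CYB5R3–KO hearts, with a median of 0.400. The groups of ratios overlap, 4 of 6 knockout hearts lay above all controls, and the geometric mean of the ratio was 2.32-fold higher (1.21 on the log2 scale, and 0.86 without ac-WT hearts 2 and 3). Lmcd1, a LIM and cysteine-rich domain protein listed with this family, was higher (27.8 ± 5.52 and 39.1 ± 7.32 CPM, log2 fold change 0.49, unadjusted p = 0.00559, edgeR adjusted p = 0.194). Of the 8 genes of this family list that were tested, Fhl1 included, 4 were fitted higher and 4 lower, and the median log2 fold change was 0.031.

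**Figure D3:**
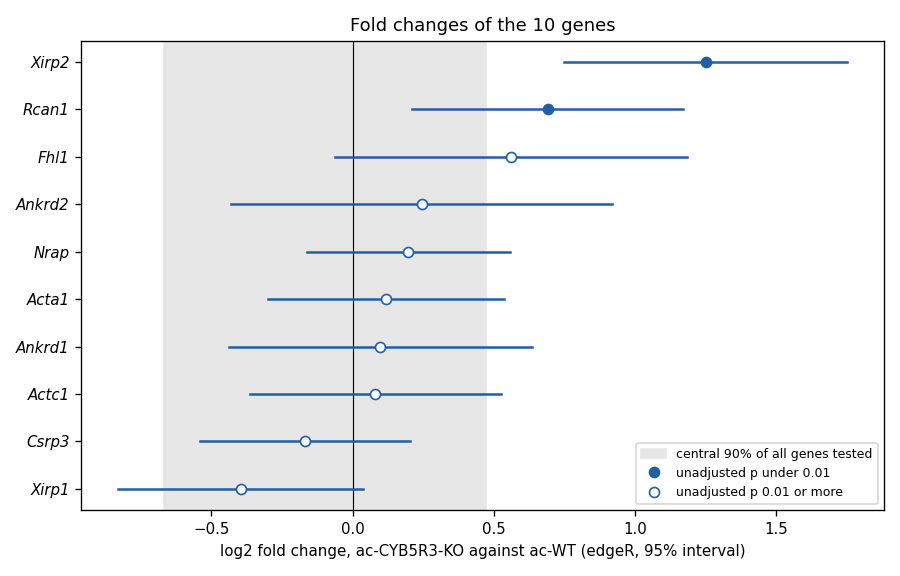
Fitted log2 fold change of each of the 10 genes (ac-CYB5R3–KO against ac-WT, edgeR) with its 95% interval, over a grey band that spans the central 90% of all genes tested. Filled circles are the 2 genes with an unadjusted p under 0.01, Xirp2 at 1.25 and Rcan1 at 0.69, and 8 of the 10 points lie to the right of 0.

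Acta1 and Actc1 encode the skeletal and cardiac α-actins of the thin filament, and the return of the skeletal form is a common sign of hypertrophy. Acta1 was at 490 to 1035 CPM in ac-WT hearts, with a median of 870, and at 683 to 1281 CPM in ac-CYB5R3–KO hearts, with a median of 860. Only 1 knockout heart, replicate 4, exceeded the highest control. Acta1 had a log2 fold change of 0.12 (SE 0.19, 95% interval -0.30 to 0.54, edgeR adjusted p = 0.795), so that these data allow a level between 0.813 and 1.45 times that of the controls. The exact permutation test of Acta1 gave p = 0.558, two-sided.

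Actc1 was at 4018 to 6632 CPM in ac-WT hearts, with a median of 5287, and 4014 to 7382 CPM in ac-CYB5R3–KO hearts, with a median of 6123. Its groups overlap over most of their range, and its log2 fold change was 0.079 (SE 0.21, 95% interval -0.36 to 0.52, edgeR adjusted p = 0.878). Within a heart there were 0.0744 to 0.228 reads of Acta1 for each read of Actc1 in ac-WT (median 0.182) and 0.108 to 0.214 in ac-CYB5R3–KO hearts (median 0.171), and the means differed by 0.063 on the log2 scale. The coding sequences of the actins are nearly identical, and how the counter treated reads that fit several genes is not given in the sources used here, so the split of reads between actins is uncertain.

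Among the other muscle actins and their regulators, the lowest p-value was that of Acta2, the α-actin of smooth muscle, at 97.0 ± 30.4 CPM in ac-WT and 52.2 ± 8.47 in ac-CYB5R3–KO hearts (log2 fold change -0.89, SE 0.20, unadjusted p = 0.000554, edgeR adjusted p = 0.144). Actg2 of visceral muscle (-0.85, unadjusted p = 0.0362) and the cytoplasmic Actg1 (-0.40, unadjusted p = 0.0567) were fitted lower without being called by edgeR. The list held 10 tested genes, Acta1 and Actc1 included, of which 4 were fitted higher and 6 lower, with a median log2 fold change of -0.12.

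Ankrd1 and Ankrd2 encode muscle ankyrin repeat proteins, which bind the N2A spring of titin and shuttle to the nucleus. Ankrd1 was at 1090 to 2184 CPM in ac-WT hearts, with a median of 1823, and at 1102 to 3034 CPM in ac-CYB5R3–KO hearts, with a median of 1844. Its spread was wide in the knockout group (SD 701 CPM, against 400.4 in ac-WT), where replicate 2 stood at 3034 CPM while replicates 1 and 3 were at 1102 and 1206. Ankrd1 had a log2 fold change of 0.099 (SE 0.25, 95% interval -0.44 to 0.63, edgeR adjusted p = 0.874), and leaving out ac-CYB5R3–KO replicate 2 turned it to -0.091. The interval of Ankrd1 reaches up to 1.55-fold.

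Ankrd2, the form typical of slow skeletal muscle, was close to the limit of detection, with 7 to 31 counts per heart. It was at 0.194 to 0.602 CPM in ac-WT hearts, with a median of 0.366, and at 0.226 to 0.570 CPM in ac-CYB5R3–KO hearts, with a median of 0.475. These ranges overlap almost fully, and the log2 fold change was 0.24 (SE 0.31, 95% interval -0.43 to 0.92, edgeR adjusted p = 0.735). In the list of muscle ankyrin repeat proteins and titin partners, 4 of 7 tested genes were fitted higher and 3 lower, with a median log2 fold change of 0.099 and no gene higher at an unadjusted p under 0.01. Titin itself, Ttn, had a log2 fold change of -0.46 (unadjusted p = 0.0731 by edgeR).

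Csrp3 encodes the muscle LIM protein, a part of the Z-disc stretch sensor. It was at 572 to 1063 CPM in ac-WT hearts, with a median of 937, and at 639 to 936 CPM in ac-CYB5R3–KO hearts, with a median of 794. All 6 knockout hearts lay inside the range of the controls. The log2 fold change of Csrp3 was -0.17 (SE 0.17, 95% interval -0.54 to 0.20, edgeR adjusted p = 0.663), and scaling by total counts turned it to 0.12, so no direction is given. Of the 14 genes of the Z-disc list, Csrp3 included, 8 were fitted higher and 6 lower, and 0 had an unadjusted p under 0.01 by edgeR. This 0 turned on the setting, since 3 were higher at that p with DESeq2, 2 with limma-voom, 2 with total counts, 2 with no filter and 3 with the replicate block. It was 2 without ac-WT 4, 3 without ac-WT 6 and 3 without ac-CYB5R3–KO 5. Those nearest to it were Des, the intermediate filament desmin (2384 ± 617 and 3605 ± 653 CPM, log2 fold change 0.60, unadjusted p = 0.0101), and the synaptopodin genes Synpo2 (0.61, unadjusted p = 0.0130) and Synpo2l (0.85, unadjusted p = 0.0169), with edgeR adjusted p between 0.218 and 0.247.

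Nrap encodes a nebulin-related protein that anchors thin filaments at the intercalated disc. It was at 108 to 169 CPM in ac-WT hearts, with a median of 125, and at 110 to 197 CPM in ac-CYB5R3–KO hearts, with a median of 150. The groups overlap, and the log2 fold change was 0.20 (SE 0.17, 95% interval -0.16 to 0.56, edgeR adjusted p = 0.593). In the list of Xin-repeat proteins and filamin partners, which holds Nrap and both Xin genes, 8 of 12 genes were fitted higher and 4 lower, with a median log2 fold change of 0.12. Beside Xirp2, Enah passed an unadjusted p under 0.01 on the higher side, at 128 ± 60.4 CPM in ac-WT and 224 ± 49.2 in ac-CYB5R3–KO hearts (log2 fold change 0.81, SE 0.27, unadjusted p = 0.00960, edgeR adjusted p = 0.215). The tropomodulins, which cap thin filaments, differed from each other in sign, with a log2 fold change of -1.29 for Tmod4 (unadjusted p = 0.0102) and 0.48 for Tmod1 (unadjusted p = 0.0365), both by edgeR.

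The transcription factors and attachment proteins that relay strain gave few calls. In the list of SRF, its cofactors, TEAD and YAP, 13 genes were tested, of which 9 were fitted higher and 4 lower, with a median log2 fold change of 0.055. Tead1, the main TEAD factor of heart muscle, was higher (46.1 ± 6.11 and 63.4 ± 13.1 CPM, log2 fold change 0.46, SE 0.14, unadjusted p = 0.00507, edgeR adjusted p = 0.193). Its coactivator Yap1 had a log2 fold change of 0.30 (unadjusted p = 0.0128 by edgeR), and Myocd, the SRF cofactor myocardin, one of -0.52 (unadjusted p = 0.0303 by edgeR). Among 17 genes of costameres and integrins, 9 were fitted higher and 8 lower, and Itgb1bp2, the chaperone melusin that binds integrin β1, was the 1 called (134 ± 48.1 and 81.1 ± 12.9 CPM, log2 fold change -0.73, SE 0.21, unadjusted p = 0.00330, edgeR adjusted p = 0.184). Ilk, a kinase-like adaptor of most cell types, was listed at 0.322 CPM in ac-WT and 0.175 in ac-CYB5R3–KO hearts, an unusually low level for such a gene, and its value is taken as uncertain.

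None of 9 muscle ubiquitin ligases had an unadjusted p under 0.01 by edgeR, and 6 of them were fitted higher. The fetal programme list of natriuretic peptides and myosins had 3 of 8 genes fitted higher, with 0 called by edgeR, and its lowest p-values were those of Myl7 (log2 fold change -1.18, unadjusted p = 0.0134), Myh6 (-0.75, unadjusted p = 0.0250) and Uchl1 (0.74, unadjusted p = 0.0526), by edgeR. Over all 10 lists without the 10 strain genes, 57 of 106 genes were fitted higher and 49 lower, with a median log2 fold change of 0.014. Of these 106 genes, 3 were higher and 4 lower at an unadjusted p under 0.01, beside 1.33% and 3.27% of all genes tested, and 0 passed an adjusted p under 0.05 (lowest 0.144, edgeR). The 3 higher genes were Enah, Lmcd1 and Tead1, and their number was 0 without ac-WT 2, ac-WT 5 or ac-CYB5R3–KO 4, 1 without ac-WT 3 or ac-CYB5R3–KO 1, 2 or 6, and 6 without ac-WT 6 or ac-CYB5R3–KO 5. Acta2, Fhl2 and Itgb1bp2 were among the 4 lower genes, whose number was 2 without ac-WT 3 or ac-CYB5R3–KO 1, 3, 4 or 5, up to 6 without other hearts, and 0 with total counts.

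**Figure D4:**
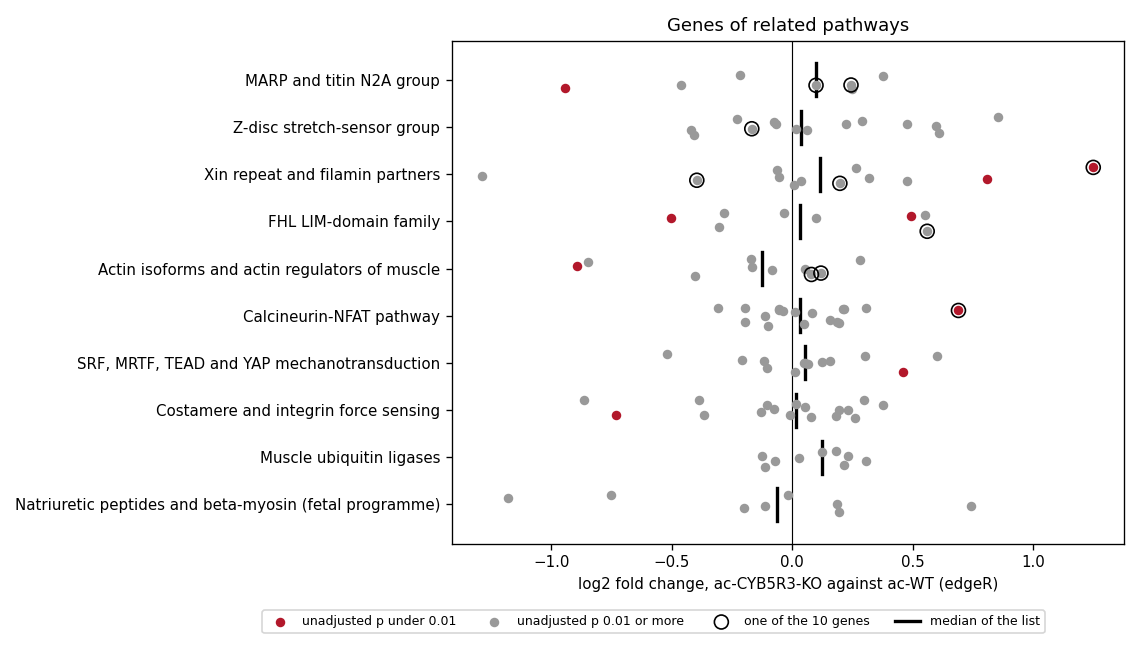
Fitted log2 fold change (ac-CYB5R3–KO against ac-WT, edgeR) of each tested gene in 10 lists, a row for each list, with red points for an unadjusted p under 0.01, grey points for other genes, circles around the 10 strain genes and a black bar for the list's median. The medians lie between -0.12 and 0.12, and Xirp2 is the point farthest to the right.

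Levels of different genes were compared per length, as CPM divided by exon length in kilobases (RPKM, with exon lengths of the GENCODE annotation of NCBIM37). By this measure Actc1 came first, at a mean of 3427 RPKM over the 12 hearts, followed by Ankrd1 (1018), Csrp3 (893) and Acta1 (606). A lower tier held Rcan1 (60.0), Fhl1 (49.1), Xirp2 (39.7), Nrap (25.4) and Xirp1 (21.6), and Ankrd2 came last at 0.378 RPKM. Actc1 exceeded Ankrd1, Acta1 exceeded Rcan1, and Xirp1 exceeded Ankrd2 in 12 of 12 hearts. Neighbours within a tier were less apart, as Ankrd1 exceeded Csrp3 in 9 hearts, Rcan1 exceeded Fhl1 in 8 and Xirp2 exceeded Nrap in 8. This order pools both groups. In ac-WT hearts the level of Xirp2 was 23.5 ± 8.83 RPKM, close to the 24.6 ± 7.29 RPKM of Xirp1 and the 23.7 ± 4.31 RPKM of Nrap. In ac-CYB5R3–KO hearts it was 55.9 ± 12.4 RPKM, against 18.7 ± 3.83 RPKM of Xirp1 and 27.1 ± 6.47 RPKM of Nrap. The rank of Xirp2 above Nrap and Xirp1 therefore does not hold for the ac-WT means.

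Across hearts the 10 genes did not move as a block. Of their 45 pairs, 33 had a positive Pearson's r of log2(CPM + 1) over the 12 hearts, 29 were positive within both groups, and 5 passed an adjusted p under 0.05 (permutation test, adjusted by Benjamini-Hochberg over the 45 pairs). The median r was 0.205. All these values share the scaling of their library.

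The closest pair was Xirp1 and Csrp3, with r = 0.951 (permutation p = 1e-05, the smallest that 100000 resamples give, adjusted p = 0.00045) and Spearman's rho = 0.923 (permutation p = 9e-05, adjusted p = 0.00405). It held within ac-WT (r = 0.962) and within ac-CYB5R3–KO hearts (r = 0.987), and without the 2 hearts farthest from the median of Xirp1 r was 0.942. Actc1 went with Nrap (r = 0.776, permutation p = 0.00476, adjusted p = 0.0457, rho = 0.783, permutation p = 0.00384, adjusted p = 0.0576) and with Csrp3 (r = 0.771, permutation p = 0.00508, adjusted p = 0.0457, rho = 0.720, permutation p = 0.0108, adjusted p = 0.0930). Without the 2 hearts farthest from the median of Actc1, these became 0.685 and 0.614. By contrast the actins did not go together, with r = -0.182 (permutation p = 0.586) and rho = -0.231 between Acta1 and Actc1.

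Since the groups separate on Xirp2, its correlations were read within groups. Xirp2 went with Fhl1 at r = 0.824 within ac-WT and 0.850 within ac-CYB5R3–KO hearts, and with Rcan1 at 0.670 and 0.508. Its r with Xirp1 was 0.248 within ac-WT and 0.635 within ac-CYB5R3–KO hearts. With 6 hearts in each group these within-group values are descriptions.

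**Figure D5:**
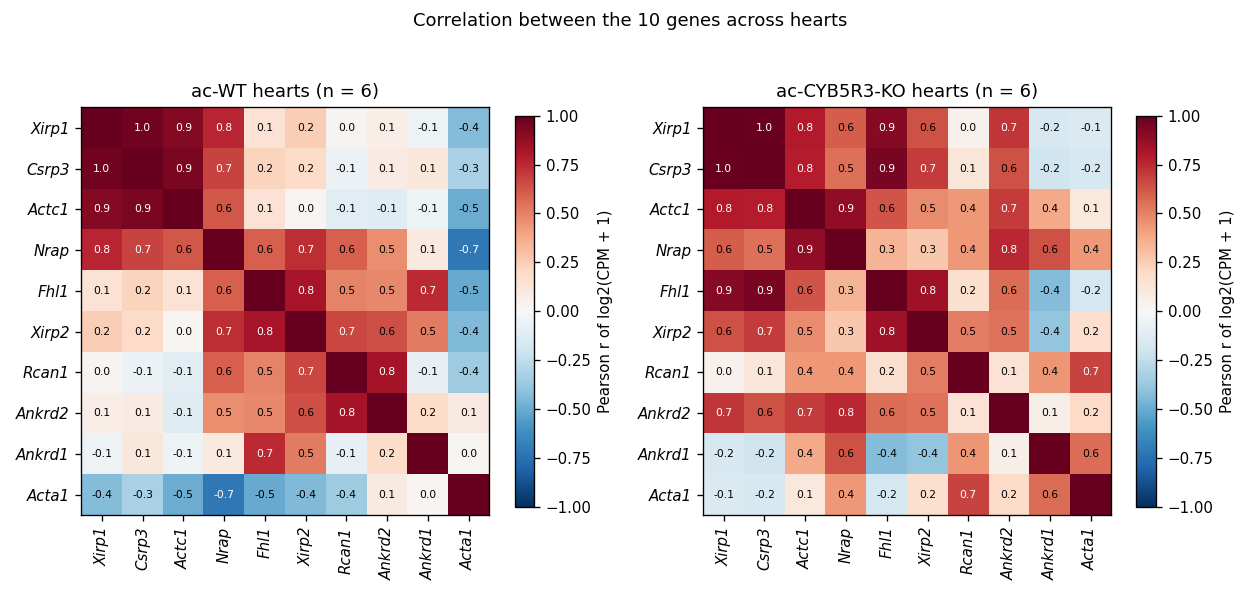
Pearson's r of log2(CPM + 1) between the 10 genes, computed within the 6 ac-WT hearts (left) and within the 6 ac-CYB5R3–KO hearts (right), on a colour scale from -1 (blue) to 1 (red). Xirp1, Csrp3 and Actc1 form a red block in both groups, and Xirp2 is red with Fhl1 in both.

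The gene of the whole table whose pattern was most like that of a strain gene was also read, as a description over 12 hearts. For Xirp1 it was Actn2, which encodes the α-actinin of the Z-disc (r = 0.963), and for Csrp3 it was Xirp1 itself (r = 0.951). Fhl1 was nearest to Qsox1 (r = 0.961), Actc1 to Cisd2 (r = 0.953), Rcan1 to Ift52 (r = 0.947), Nrap to Vcp (r = 0.935), Ankrd2 to Tmem17 (r = 0.918) and Ankrd1 to Mtus1 (r = 0.845). The nearest gene of Acta1 was Pdzd3 at r = 0.830, which dropped to 0.345 without 2 hearts. For Xirp2 it was Gsta2, a glutathione transferase at 0.563 CPM in ac-WT and 1.23 in ac-CYB5R3–KO hearts, with r = 0.922 within ac-WT and 0.956 within ac-CYB5R3–KO hearts.

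Markers of other cells and of the tissue are given beside these results. The summed level of 10 cardiomyocyte markers was 18517 to 45686 CPM in ac-WT hearts (median 21581) and 13416 to 23102 CPM in ac-CYB5R3–KO hearts (median 18330). An exact permutation test of this sum gave p = 0.0390, two-sided. Of the 10 markers, 9 were fitted lower, while 48.8% of all genes tested were fitted higher. Values of this sum without ac-WT hearts 2 and 3 are not given. The part of cardiomyocyte content in the levels of Xirp2 and Rcan1 was not tested. Skeletal muscle markers, of interest because Xirp2, Fhl1 and Acta1 are also expressed there, were mostly low, with 8 of 10 under 1 CPM. Myh1 and Myh2 had at most 5 counts in any heart, and Myh4 had 14 to 65. Tnnt3 had 201 to 1690 counts, with means of 14.7 CPM in ac-WT and 21.0 CPM in ac-CYB5R3–KO hearts. Tnni2 had 69 to 277 counts, with means of 3.48 and 2.28 CPM. The sums, mostly Tnnt3, were 12.5 to 33.8 CPM in ac-WT and 13.4 to 40.7 CPM in ac-CYB5R3–KO hearts. Of the 5 atrial markers, Sln had at most 2 counts and Bmp10 at most 3 in any heart, and Myl7 had 10 to 105 counts, although the tissue is labelled as whole heart. Myl4, with 244 to 553 counts, and Nppa, with 21474 to 93977 counts, were detected in every heart.

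Red blood cell markers summed to 221 to 4482 CPM in ac-WT hearts (median 1115) and 1322 to 12216 CPM in ac-CYB5R3–KO hearts (median 3295), with all 4 matched of 6 listed fitted higher. Cartilage markers summed to 3.49 to 35.2 CPM and 37.4 to 96.6 CPM, with no overlap of the groups and 3 of 3 tested genes fitted higher. Among single genes tested, 0.51% showed such a separation on the higher side. This sum was nearly all Comp, at means of 16.2 CPM in ac-WT and 73.5 CPM in ac-CYB5R3–KO hearts. Of the 5 cartilage genes listed, 4 were under 1 CPM, so the sum stands for 1 gene and not for cartilage. Smooth muscle markers, led by Acta2, summed to 75.4 to 187 CPM and 76.8 to 138 CPM. Exact permutation tests of these sums, two-sided, gave p = 0.0433 for red blood cells, 0.00216 for cartilage and 0.102 for smooth muscle. Those of fibroblast, endothelial and macrophage markers gave exact p-values of 0.394, 0.550 and 0.675, and 5 of 5 macrophage markers were fitted lower, with the lowest p for Cd163 (log2 fold change -0.96, unadjusted p = 0.00440 by edgeR). The part of these cells in the levels of Xirp2 and Rcan1 was not tested.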

How the data were processed

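Raw read counts for 53700 Ensembl genes in 12 libraries, as deposited by the authors, were neither normalized nor filtered. Frozen heart tissue had been pulverized, and libraries were made with a stranded total RNA kit. The study's methods name fastq-mcf, Trimmomatic and STAR with the mm9 genome, whereas the submitters' processing notes name STAR, featureCounts and GRCm39. The annotation release, strand setting and handling of reads that fit several genes are not given in the sources used here. Gene symbols came from GENCODE (57.8% of identifiers), and all 10 strain genes were matched.

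Counts were filtered with filterByExpr (minimum count 10), TMM-normalized and tested, two-sided, by quasi-likelihood in edgeR (version 4.0.16, R 4.3.3), with Benjamini-Hochberg adjustment over 17847 genes. The biological coefficient of variation was 26.5%, so the spread between mice and not the depth (43393183 to 53754284 counts) limits precision for all but the lowest genes. Single genes were also tested on log2(CPM + 1) by exact permutation of the 12 mice. Results were recomputed with limma-voom (limma 3.58.1), with DESeq2 (1.42.0), with 1 surrogate variable (sva 3.50.0), and with other scalings and filters, a replicate block and hearts left out. In simulated counts of this comparison, edgeR recovered 75 of 100 genes changed by 1 on the log2 scale and 98 of 100 changed by 2, with 12 false calls.

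The 10 genes and all lists were chosen with earlier results of these data known. Genes named for a list were the 3 with the lowest p besides the 10 strain genes. A gene that this rule names is not reported here. The read ratios were added after values had been seen, and columns of the table left unused numbered 0. Promoter windows came from the RefSeq table, trimmed to the bases before the start.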

Additional observations from a re-analysis of the deposited data

How the results depend on the processing

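The log2 fold change of Xirp2 stayed between 0.95 and 1.44 in all 21 alternatives, with an unadjusted p of 0.000571 or less, and its adjusted p ranged from 9.08e-05 with DESeq2 to 0.191. The number of strain genes with an adjusted p under 0.05, 0 by edgeR, was 1 with DESeq2 and 1 with no filter, and 0 to 1 with single hearts left out. The number with an unadjusted p under 0.01 was 1 with 1 surrogate variable, 1 without both ac-WT hearts 2 and 3, and 1 to 3 with single hearts left out. With the surrogate variable, Rcan1 had a log2 fold change of 0.43 (edgeR adjusted p = 0.646). The number of strain genes fitted higher lay between 6 and 9. The hearts come from different mice and were not paired by replicate number in the main test. Correlations of same-numbered hearts lay between -0.174 and 0.356, with a mean of 0.129 beside -0.0245 for other pairs. Of the 12 hearts, 6 were closest to their own number. Whether the numbers mark a shared batch was not tested. With the numbers as a replicate block, Xirp2 was at 1.30 and Rcan1 at 0.71, and Fhl1 at 0.70 (edgeR adjusted p = 0.289).

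Small changes turned sign. Actc1 was at -0.0066 and Ankrd1 at -0.091 without ac-CYB5R3–KO 2 (0.16 and 0.21 at the other end of the range over single hearts left out), Ankrd2 at -0.065 with the surrogate variable, and Csrp3 at 0.12 with total counts. As differences of mean log2(CPM + 1), Csrp3 was at 0.16 with total counts, and with single hearts left out Acta1 ranged from -0.013 to 0.21, Actc1 from -0.011 to 0.17 and Ankrd1 from -0.11 to 0.18. Total counts moved the median of all genes to 0.26, against which Xirp2 was at 1.18 and Rcan1 at 0.63. The share of lower genes among those with an unadjusted p under 0.01 was then 33.1% in place of 71.1%, 59.6% with limma-voom, and 56.6% without ac-WT hearts 2 and 3.

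All genes with an adjusted p under 0.05, 18 by edgeR, numbered 437 with DESeq2, 2 with limma-voom, 8 with DESeq2-style size factors, 8 with total counts, 35 with no filter, 2 with the replicate block, 3 with the surrogate variable, 7 without ac-WT hearts 2 and 3, and 2 to 38 with single hearts left out. Those with an unadjusted p under 0.01, 820 by edgeR, numbered 1238 with DESeq2, 426 with total counts, 376 with the surrogate variable, 426 without ac-WT hearts 2 and 3, and 463 to 1169 with single hearts left out. Other genes of the pathway lists on the higher side, 3 by edgeR, numbered 7 with DESeq2, 5 with limma-voom, 5 with no filter, 6 with the replicate block, 0 with the surrogate variable, 0 without ac-WT hearts 2 and 3, and 0 to 6 with single hearts left out. Those on the lower side, 4 by edgeR, numbered 7 with DESeq2, 0 with total counts, 1 with the surrogate variable, 1 without ac-WT hearts 2 and 3, and 2 to 6 with single hearts left out. The cause of these shifts was not tested.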
